A study of Mus musculus with 6 samples.

Results

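The respiratory chain genes described here are the protein-coding genes for the subunits of the mitochondrial oxidative phosphorylation complexes, read here from RNA-seq counts of mouse myeloid leukemia cells labelled NT, DOT1L Low and DOT1L High. They were chosen by symbol. Nuclear members have symbols that start with Ndufa, Ndufb, Ndufc, Ndufs, Ndufv, Sdh followed by a, b, c or d, Uqcr, Cox4 to Cox8 or Atp5, without the Ndufaf assembly factors, and mitochondrially encoded members are the protein-coding genes named mt-. The rule gave 102 of 49585 gene IDs, of which 89 are nuclear and 13 are encoded in mitochondrial DNA. By symbol, 38 nuclear members belong to complex I, 8 to complex II, 8 to complex III, 18 to complex IV and 17 to complex V. The 13 mitochondrial genes give 7 subunits to complex I, 1 to complex III, 3 to complex IV and 2 to complex V. The symbol rule also takes in 4 assembly factors of complex II, Sdhaf1 to Sdhaf4, and Atp5s, which leaves 84 nuclear subunits, and it files Ndufa4, known as a complex IV subunit, under complex I. A second ID annotated as Atp5o was not analysed here.

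The cells carried KMT2A-MLLT3, a fusion protein that joins the N-terminal part of KMT2A to MLLT3, which binds DOT1L, the enzyme that methylates lysine on the core of histone H3. Marrow of mice dying of this leukemia was transduced with DOT1L, populations with high and with low expression were sorted, and RNA was taken 3 days later from cells kept with mouse interleukin 3, interleukin 6 and stem cell factor. The 3 groups, labelled DOT1L High, DOT1L Low and NT, each held 1 library of leukemia K3174 and 1 of leukemia K3117, and all of them carried the fusion. The labels do not spell out NT, whether NT cells were transduced or sorted, which species the DOT1L construct came from, or whether the K numbers are separate mice. If they are not, the p-values below measure only the spread between these samples, which may be technical.

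As background, complex I (NADH dehydrogenase) and complex II (succinate dehydrogenase) pass electrons through coenzyme Q to complex III, and cytochrome c carries them on to complex IV, cytochrome c oxidase. The proton gradient that complexes I, III and IV build drives complex V, the ATP synthase. Complex II is made of nuclear products only, while each of the others joins nuclear subunits to subunits transcribed inside the mitochondrion from both strands of its own DNA as long RNAs that are cut into messenger, ribosomal and transfer RNAs. Myeloid leukemia cells are known to rely on oxidative phosphorylation, whereas mature neutrophils are known to hold few mitochondria and to live largely on glycolysis.

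Nuclear DNA also holds copies of mitochondrial genes. The sequences below are shown because they bear on how far mitochondrial counts can be told apart from those of the copies. A block of 7 unprocessed pseudogenes on chromosome 1 (GRCm38, 24611535 to 24616197, minus strand) copies the stretch from mt-Co1 to mt-Nd4. The mitochondrial genes from mt-Co2 to mt-Nd4l, 6 in all, lie across that stretch. The first 100 bases of mt-Nd4l and of its copy Gm10222 are the same letter for letter, mt-Nd3 and its copy Gm28438 differ at 1 of 345 aligned bases, and mt-Cytb, outside the block, differs from its closest annotated copy, Gm11410 on chromosome 4, at 81 of 1142 aligned bases. Letters in capitals mark the positions at which the members of a pair differ (annotated GENCODE transcripts, GRCm38, 5′ to 3′; the mt-Cytb stretch is bases 541 to 640 of the transcript).
mt-Nd4l: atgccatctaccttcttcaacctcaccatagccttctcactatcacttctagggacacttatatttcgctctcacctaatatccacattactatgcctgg
Gm10222: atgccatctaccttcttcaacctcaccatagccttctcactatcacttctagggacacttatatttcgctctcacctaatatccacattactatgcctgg
mt-Nd3: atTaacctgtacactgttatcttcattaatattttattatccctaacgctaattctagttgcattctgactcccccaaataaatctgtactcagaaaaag
Gm28438: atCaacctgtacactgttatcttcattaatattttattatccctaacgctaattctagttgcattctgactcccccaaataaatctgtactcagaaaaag
mt-Cytb: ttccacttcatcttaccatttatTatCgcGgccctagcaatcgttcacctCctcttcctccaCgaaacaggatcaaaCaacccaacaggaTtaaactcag
Gm11410: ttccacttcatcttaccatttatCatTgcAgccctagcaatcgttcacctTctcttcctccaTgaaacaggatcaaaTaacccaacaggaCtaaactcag

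Sequencing depth was between 22908445 and 33265848 counts per library, and the nuclear members took between 0.962% and 1.18% of them and the mitochondrial members between 0.979% and 1.44%. Levels are in CPM, counts scaled to each library's TMM-adjusted total, and each of the 98 members with enough counts to test, 85 nuclear and 13 mitochondrial, was tested by edgeR with the leukemia as a block, with p-values adjusted over all 15812 genes tested and a threshold of 0.05. Dot1l counts did not follow the labels: in CPM, NT, Low and High had 157.9, 151.9 and 136.3 in K3174 and 127.7, 183.6 and 149.7 in K3117, and High over NT was -0.00 ± 0.15 (log2, SE; adjusted p = 1.00). All 8 leukemic myeloid markers were above 1 CPM in every library. Ms4a1, Cd3e, Cd8a, Col3a1 and Cxcl12, markers of B, T and stromal cells, had no count in any library, while 1 marker of each of those lists was above 1 CPM in every library. The lists summed to 9.56 to 17.1 CPM for B cells, 8.08 to 54.7 CPM for T and NK cells and 114.6 to 213.1 CPM for stromal and endothelial cells. Nkg7, which makes up nearly all of the T and NK sum, rose in High against NT (1.87, adjusted p = 0.00014). The erythroid list summed to 1.29 to 18.2 CPM, with Hbb-bt lower in High against NT (-1.41, adjusted p = 0.033) and Hba-a1 higher in High against Low (2.58, adjusted p = 0.032), and 6 muscle and fat markers summed to at most 0.736 CPM. The 19 late neutrophil genes summed to 242.1, 1577 and 8080 CPM in NT, Low and High of K3174 and to 84.5, 212.2 and 1884 CPM in those of K3117. In bulk RNA, fewer cells of a type and less RNA per cell cannot be told apart.

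Most nuclear members were well measured. Of the 89, 75 averaged at least 20 CPM over the 6 libraries, and 10 averaged under 5 CPM. Some nuclear members also have near copies, with at least 95% identity over at least 50% of the transcript. This held for 12 of the 89, and in 3 the copies took over 5% of the summed mean counts. These were Atp5l (39.3%), Atp5h (6.13%) and Uqcrb (6.02%), so the level of Atp5l is uncertain. Scaled to transcript length, the leaders of complex V were Atp5b, the catalytic beta subunit, at 914.5 CPM per kb and Atp5a1, the alpha subunit, at 510.3 CPM per kb. The leaders of complex IV were Cox8a at 384.2 and Cox6a1 at 346.4 CPM per kb, both small subunits of the ubiquitous type. Complex III was led by Uqcrh, the hinge protein, at 171.1 and Uqcr11 at 165.7 CPM per kb, and complex II by Sdhd, a membrane anchor, at 159.1 and Sdha, the flavoprotein, at 130.2 CPM per kb. The members filed under complex I were led by Ndufa4 at 255.0 and the accessory subunit Ndufb7 at 135.3 CPM per kb. The median nuclear member stood at 90.3 CPM per kb.

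The mitochondrially encoded genes fell into levels far apart along their genome. Of the 13, 7 stood at 495.1 to 3127 CPM per kb. They were mt-Co1, the catalytic subunit of complex IV (3127 CPM per kb), mt-Cytb, the cytochrome b of complex III (1786), and the complex I subunits mt-Nd1 (1717), mt-Nd2 (905.6), mt-Nd5 (857.5), mt-Nd6 (531.1) and mt-Nd4 (495.1), of which mt-Nd6 alone lies on the other strand. The 6 genes between mt-Co1 and mt-Nd4 stood at 10.8 to 51.1 CPM per kb. These were mt-Co2, mt-Atp8, mt-Atp6, mt-Co3, mt-Nd3 and mt-Nd4l, and they are the genes that the chromosome 1 block spans. That block held between 2810 and 5358 counts per library. Near copies took 65.1% of the summed mean counts of mt-Co2 and its near copies. That share was 53.8% for mt-Atp6, 48.3% for mt-Co3, 69.5% for mt-Nd3 and 39.5% for mt-Nd4l, while mt-Atp8 had no annotated near copy. Of the 2 near copies of mt-Co2, only Gm28661 lies in the block, and the other lies outside it. Gm28661 averaged 33.0 CPM over the 6 libraries, beside 34.9 CPM for mt-Co2. How reads that match several places were counted is not given in the sources used here, so the levels of these 6 genes are uncertain. The other 7 carry nearly all mitochondrial counts but are not all free of copies. Mt-Nd4 is identical to its chromosome 1 copy over 63.6% of its transcript, and that copy took 1.74% of the summed mean counts. The share was 2.18% for mt-Co1, with a near copy on chromosome 2, and 0.171% for mt-Nd5, with 1 on chromosome 13.

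**Figure D1:**
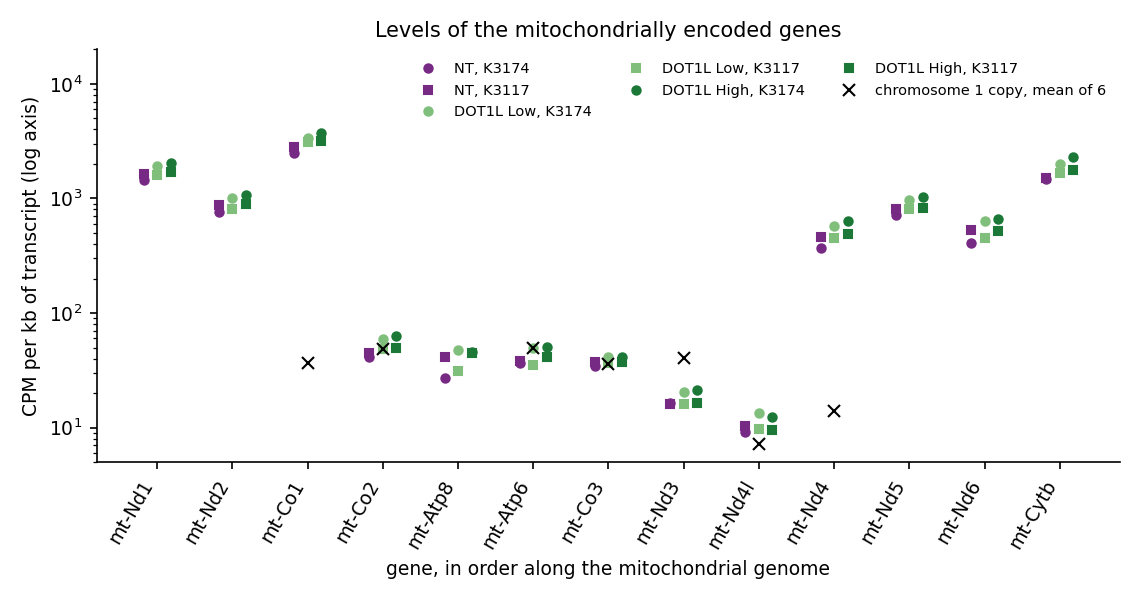
Level of each mitochondrially encoded gene in CPM per kb of transcript (log axis), in order along the mitochondrial genome. Points are the 6 libraries, coloured by label, with circles for K3174 and squares for K3117, and crosses are the chromosome 1 copies (mean of 6 libraries). The 6 genes from mt-Co2 to mt-Nd4l sit between 10.8 and 51.1 CPM per kb on average, in the range where the copies also lie, and the other 7 at 495.1 or more.

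Nuclear respiratory chain genes were seldom called in High against NT, and the mitochondrially encoded genes lay above zero as a group. Of the 85 nuclear members tested, 3 passed the threshold and all 3 were lower, against 17.3% of all genes tested (10.0% higher and 7.32% lower). The nuclear members had a median log2 fold change of -0.13, with 69 below and 16 above zero, beside a median of -0.01 over all genes. Of the 13 mitochondrial members, 1 passed, higher, and all 13 had a fitted fold change above zero, between 0.12 and 0.44. Of all calls 57.8% were higher, which became 43.9% with upper quartile factors. Those factors also moved the median of all genes to -0.11. Relative to the median of all genes, the nuclear members lay at -0.11 and the mitochondrial members at 0.30 under both scalings.

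Sdhb, the iron-sulfur subunit of complex II (chromosome 4, 140961203 to 140979193, plus strand), had 95.7, 64.9 and 57.7 CPM in NT, Low and High of K3174, and 103.6, 85.8 and 72.1 CPM in those of K3117. Both High libraries lay below both NT libraries, and the order of the labels was the same in both leukemias. High over NT was -0.63 ± 0.12 (log2, SE; adjusted p = 0.0043), a level of 0.647 times that in NT (95% interval 0.537 to 0.781). The next gene downstream, Atp13a2, a lysosomal transporter that starts 7679 bases past the end of Sdhb, was also lower, at -1.64 ± 0.17. Sdhb did not pass without the K3174 High library (adjusted p = 0.051). Of the 8 members of complex II by symbol, 7 had a negative difference in both leukemias and 1, the assembly factor Sdhaf2, a positive one in both. Sdhaf1, which serves the iron-sulfur subunit, had -0.99 ± 0.33 (adjusted p = 0.059) at under 3 CPM in every library, Sdha -0.21 ± 0.12 (adjusted p = 0.29), Sdhc, the other membrane anchor, -0.17 ± 0.11 (adjusted p = 0.36), and Sdhd -0.13 ± 0.11 (adjusted p = 0.52).

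Atp5o, a subunit of the stalk that holds the ATP synthase head (chromosome 16, 91925214 to 91931687, minus strand), had 125.9, 100.7 and 87.2 CPM in NT, Low and High of K3174, and 123.1, 118.2 and 98.4 CPM in those of K3117. The High libraries again lay below the NT libraries, with the same order in both leukemias. High over NT was -0.43 ± 0.12 (adjusted p = 0.030). The call was lost without the High library of K3174 (adjusted p = 0.30) or of K3117 (adjusted p = 0.13), with the NT library of K3174 left out (adjusted p = 0.095) and with only the High and NT libraries in the fit (adjusted p = 0.051). Among the 17 nuclear members of complex V, 14 had a fitted fold change below zero, with a median of -0.17. Atp5b had -0.20 ± 0.13 (adjusted p = 0.36) and Atp5a1 -0.19 ± 0.13 (adjusted p = 0.37).

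Cox6a2, the heart and muscle isoform of a complex IV subunit (chromosome 7, 128205435 to 128206387, minus strand), had 53, 35 and 8 counts in NT, Low and High of K3174, and 56, 51 and 0 counts in those of K3117. These are 2.32, 1.05 and 0.269 CPM in K3174 and 1.68, 1.63 and 0 CPM in K3117, so all High values lay below all others. High over NT was -3.71 ± 0.68 by the fit (adjusted p = 0.0027). Within K3174 the level in High was 8.62-fold lower than in NT, and within K3117 it was at least 12.6-fold lower, with the High library set to a floor of 3 counts. The whole gene lies inside the span of Itgad, an integrin gene on the other strand, and 70 bases of their transcripts are identical. Itgad itself fell, with 13, 9 and 2 counts in NT, Low and High of K3174 and 72, 9 and 1 in those of K3117 (-4.31 ± 0.76, adjusted p = 0.0021). The identical bases make up 10.3% of the Cox6a2 transcript. The use of strand in counting is not given, so how far Itgad reads within the Cox6a2 span entered its count is not known. Cox6a1, the ubiquitous partner, had 231.2, 168.2 and 172.5 CPM in NT, Low and High of K3174 and 183.1, 226.2 and 205.7 CPM in those of K3117, with opposite directions in the leukemias and a fitted High over NT of -0.14 ± 0.16 (adjusted p = 0.64).

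**Figure D2:**
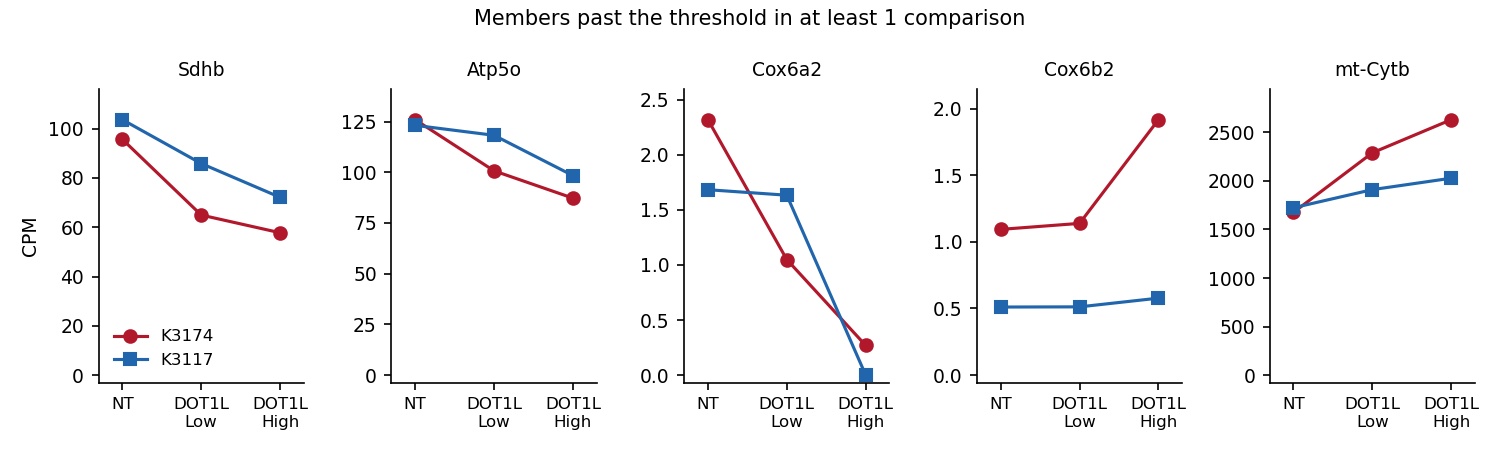
CPM of the members that passed the threshold in at least 1 comparison (vertical axes include 0 and differ between panels), from NT to DOT1L Low and DOT1L High, with circles for K3174 and squares for K3117 (1 library each). Sdhb, Atp5o and Cox6a2 were lowest in High in both leukemias, Cox6b2 was higher in K3174 in every label, and mt-Cytb was highest in High.

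In the other isoform pairs of complex IV the tissue-restricted member was at trace levels. Cox4i1 averaged 230.7 ± 28.6 CPM in High and 283.9 ± 8.1 CPM in NT (SD, n = 2 each), while Cox4i2, a lung isoform, had at most 0.800 CPM in any library. Cox6b1 averaged 136.5 ± 16.1 CPM in High and 158.1 ± 10.8 CPM in NT, and its testis isoform Cox6b2 at most 1.92 CPM. Cox7a2 averaged 101.0 ± 3.6 CPM in High and 94.8 ± 5.73 CPM in NT, and the muscle isoform Cox7a1 at most 3.52 CPM. None of these 6 passed for High against NT. Cox7b (127.0 ± 15.9 CPM in High, 129.8 ± 14.9 in NT) and Cox8a (202.4 ± 28.5 in High, 224.9 ± 6.0 in NT) did not pass either, while their testis partners Cox7b2 and Cox8c had no count in any library. Cox8b, a muscle isoform, had at most 11 counts and Ndufa4l2, the hypoxia-induced relative of Ndufa4, at most 7, and neither was tested. Ndufa4 itself averaged 156.0 ± 5.54 CPM in High and 157.6 ± 7.56 CPM in NT.

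Among the remaining nuclear members, complex I had no call among 37 tested by edgeR, with a median of -0.10 over a range of -0.40 to 0.36. Over all nuclear members, 10 of 85 had an unadjusted p under 0.05, beside 28.7% of all genes. DESeq2 called 3 of 87, beside 9.05% of the 26299 genes it tested. Those were not filtered for low counts, so this share is not directly comparable with the edgeR shares over 15812 genes. The complex I members farthest from zero were Ndufb10, an accessory subunit (-0.40 ± 0.13, adjusted p = 0.061), and Ndufb3, also accessory (0.36 ± 0.13, adjusted p = 0.076), both named after their values were seen. Ndufb7 had -0.03 ± 0.12. In complex III the 8 members had a median of -0.13 between -0.27 and 0.06, with Uqcrh at -0.17 ± 0.12 and Uqcr11 at -0.12 ± 0.14, and in complex IV the median was -0.10. The member with the highest fold change in the nuclear set was Cox6b2 (0.56 ± 0.41, adjusted p = 0.42). Both High libraries lay below both NT libraries for 36 of the 85 nuclear members, beside 25.3% of all genes tested, and above them for 6, beside 25.3%. The 6 were Atp5s, Cox6c, Ndufa6, Ndufb3, Ndufv3 and Sdhaf2.

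**Figure D3:**
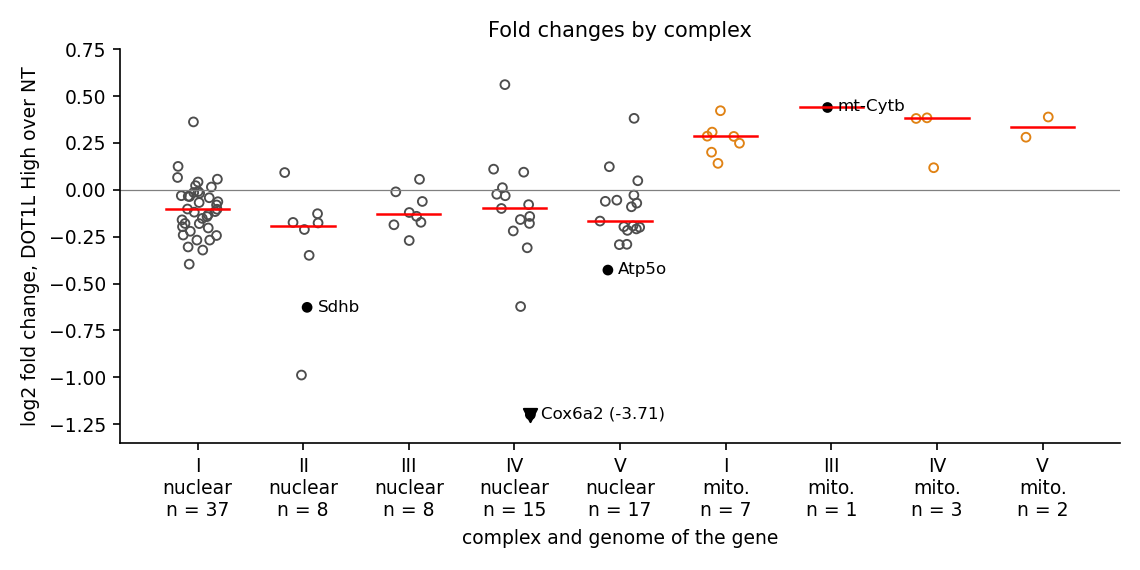
Fitted log2 fold change of DOT1L High over NT for the 98 members tested, by complex and by the genome that encodes the gene. Each circle is a gene, filled where the adjusted p is under 0.05, and red lines are medians. Cox6a2 is drawn as a triangle at the lower edge, below which its value of -3.71 lies. Medians of the nuclear groups lie between -0.19 and -0.10 and those of the mitochondrial groups between 0.28 and 0.44.

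Among mitochondrial members, mt-Cytb had 1676, 2290 and 2631 CPM in NT, Low and High of K3174 and 1724, 1910 and 2028 CPM in those of K3117. Both High libraries lay above both NT libraries, and the labels stood in the same order in both leukemias. High over NT was 1.36-fold (95% interval 1.10 to 1.67, adjusted p = 0.046). The call was lost with upper quartile factors (adjusted p = 0.10) or library sizes alone (0.072), with only the High and NT libraries in the fit (0.080), without the K3174 High library (0.41), the K3174 NT library (0.16), the K3174 Low library (0.061) or the K3117 Low library (0.066). Mt-Co1 had 3855, 5226 and 5801 CPM in K3174 and 4352, 4838 and 4915 CPM in K3117 in the same order, with 0.38 ± 0.14 (adjusted p = 0.087). DESeq2 called it, with 2 of 13 mitochondrial members in all, beside 9.05% of the 26299 genes it tested without a low-count filter.

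The 7 complex I subunits encoded in mitochondrial DNA also had fitted fold changes above zero, with wider gaps between the leukemias. All 7 differences were positive in K3174, but in K3117 5 were positive and 2 negative. Mt-Nd4 had 511.7, 788.2 and 867.2 CPM in NT, Low and High of K3174, and 630.4, 616.3 and 679.5 CPM in those of K3117 (0.42 ± 0.16 for High over NT, adjusted p = 0.10). Mt-Nd1 (0.29 ± 0.14, adjusted p = 0.20), mt-Nd5 (0.28 ± 0.14, adjusted p = 0.22) and mt-Nd2 (0.25 ± 0.15, adjusted p = 0.30) differed by 0.49 to 0.54 in K3174 and by 0.02 to 0.08 in K3117. For mt-Nd6, transcribed from the other strand, the differences were 0.69 in K3174 and -0.03 in K3117. Of the 6 genes that the chromosome 1 block spans, mt-Co2 (0.38 ± 0.15, adjusted p = 0.10) and mt-Atp8 (0.39 ± 0.26, adjusted p = 0.37) were the highest. Mt-Co3 (0.12 ± 0.14, adjusted p = 0.66) was the lowest, with mt-Atp6 at 0.28 ± 0.16, mt-Nd3 at 0.20 ± 0.21 and mt-Nd4l at 0.14 ± 0.27. Without these 6, the mitochondrial median was 0.31. Both High libraries lay above both NT libraries for 9 of the 13 genes, beside 25.3% of all genes tested, the others being mt-Co3, mt-Nd3, mt-Nd4l and mt-Nd6.

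The leukemias differed in how far the members moved. In K3174 the nuclear members summed to 11809, 10613 and 9806 CPM in NT, Low and High, and in K3117 to 11259, 11094 and 11049 CPM. The mitochondrial members summed to 9813, 13386 and 14722 CPM in K3174 and to 11009, 11543 and 12067 CPM in K3117. The ratio of mitochondrial to nuclear sums was thus 0.831, 1.26 and 1.501 in K3174 and 0.978, 1.04 and 1.09 in K3117, in the order of the labels in both. High differed from NT by -0.27 in K3174 and -0.03 in K3117 for the nuclear sum, and by 0.59 in K3174 and 0.13 in K3117 for the mitochondrial sum, on the log2 scale. With 1 library per label in a leukemia these gaps have no test. In K3174, 52 of 85 nuclear members were ordered with High below Low and Low below NT, beside 29.1% of all genes tested, and 11 of 13 mitochondrial members the other way, beside 29.0%. In K3117 those counts were 18 of 85, beside 23.3%, and 3 of 13, beside 22.5%. The 3 were mt-Co1, mt-Co2 and mt-Cytb.

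Either NT library moved these values when left out. The K3174 NT library was lower than the K3117 NT library for 12 of the 13 mitochondrial genes. Without it, the mitochondrial median for High over NT was 0.05 with 9 of 13 genes above zero and 0 called by edgeR (1 at an unadjusted p under 0.05), and mt-Atp8, mt-Co3, mt-Nd4l and mt-Nd6 were below zero. The nuclear median was then -0.05 with 2 genes called, both lower, beside 15.7% of all genes called and 6.3% lower in that fit. Without the K3117 NT library instead, the mitochondrial median was 0.53 with 10 genes called, all higher, and the nuclear median -0.19 with 19 genes called, all lower, beside 26.6% of all genes called, 14.2% higher and 12.5% lower. The nuclear median was -0.21 without the K3117 High library and -0.042 without the K3174 High library. Late neutrophil genes were far above NT in High of both leukemias, by 5.06 in K3174 and 4.48 in K3117 as a sum and by 5.08 in K3174 and 5.12 in K3117 as a median over genes (log2), and their part in these differences was not tested. Without the replicate block, 493 genes, 3.12% of those tested, passed for High against NT and none of the members did (8 nuclear and 2 mitochondrial at an unadjusted p under 0.05). Sdhb then had an adjusted p of 0.13, Atp5o 0.13, Cox6a2 0.088 and mt-Cytb 0.19.

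**Figure D4:**
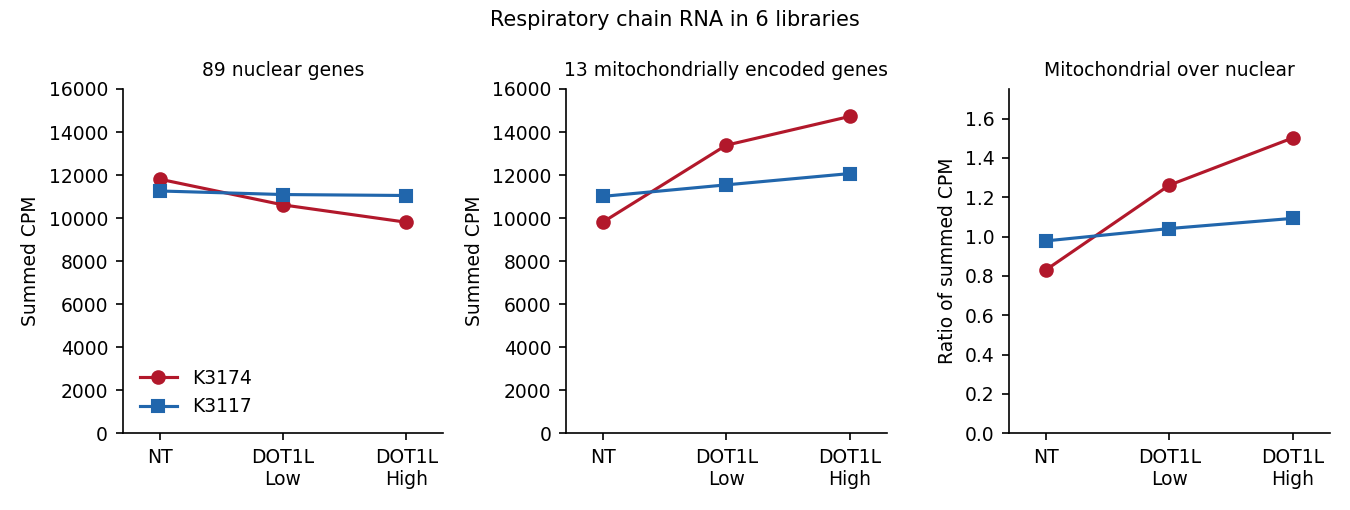
Summed CPM of the 89 nuclear and the 13 mitochondrially encoded members, and the ratio of the mitochondrial to the nuclear sum, from NT to DOT1L Low and DOT1L High in K3174 (circles) and K3117 (squares), 1 library per point. The ratio reached 1.501 in High of K3174, against 0.831 in its NT library, and 1.09 in High of K3117, against 0.978 in NT.

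**Figure D5:**
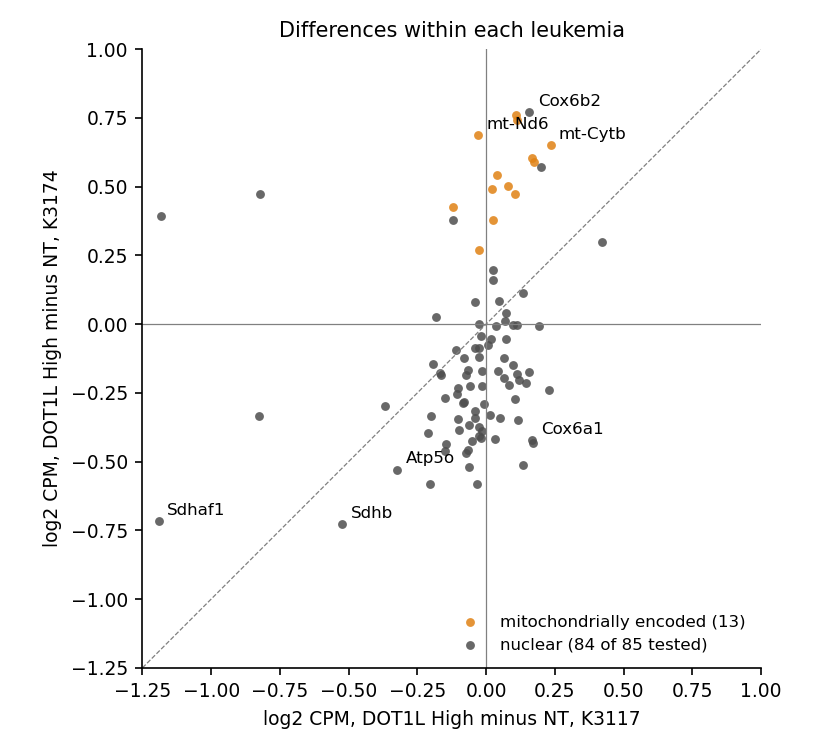
Difference in log2 CPM between DOT1L High and NT for each member tested, in K3117 (horizontal) and K3174 (vertical), without Cox6a2, which lies off the scale at -4.66 and -2.82. The dashed line marks equal differences. Mitochondrial members (orange) lie between 0.27 and 0.76 in K3174 and between -0.12 and 0.23 in K3117, and nuclear members (grey) mostly below zero in K3174.

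For Low against NT no member passed by edgeR, beside 3.34% of all genes tested, and none by DESeq2. At an unadjusted p under 0.05 there were 2 nuclear members, Sdhb (-0.42 ± 0.12, adjusted p = 0.11) and Atp5k, a small complex V subunit (-0.28 ± 0.13, adjusted p = 0.36), and no mitochondrial one. The nuclear median was -0.08 and the mitochondrial median 0.19, with all 13 genes above zero in the fit. All 13 were above NT in K3174, where mt-Co1 had 5226 CPM in Low and 3855 CPM in NT, but only 3 of 13 in K3117. Both Low libraries lay below both NT libraries for 31 of 85 nuclear members, beside 15.8% of all genes, and above them for 3, beside 15.8%. For the mitochondrial genes they lay above for mt-Co1, mt-Co2 and mt-Cytb. Without the K3174 NT library the mitochondrial median was -0.03 and the nuclear median -0.033. Without the K3117 NT library instead they were 0.48 and -0.12, so the values for Low against NT also hung on single NT libraries. Low and High share the NT libraries, so the comparisons with NT are not independent. The lowest and highest nuclear fold changes for Low over NT were Cox6a2 (-0.55 ± 0.49) and Cox4i2 (0.28 ± 0.75), both low genes that did not pass.

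For High against Low, 1 nuclear member of 85 passed, beside 5.48% of all genes, and it was lower, beside 1.35%. It was Cox6a2 (-3.16 ± 0.70, adjusted p = 0.022), which was 3.90-fold lower in High than in Low within K3174 and at least 12.2-fold lower within K3117. It did not pass without the K3117 Low library (adjusted p = 0.15) or without the block (adjusted p = 0.42). The highest nuclear value was again Cox6b2 (0.54 ± 0.40, adjusted p = 0.64). No mitochondrial member passed by edgeR or DESeq2, and none had an unadjusted p under 0.05. The median was 0.09 for mitochondrial and -0.04 for nuclear members.

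Between the leukemias, K3174 against K3117, 1 nuclear member passed, beside 9.37% of all genes, and it was higher, beside 3.05%. This was Cox6b2, with 1.09, 1.14 and 1.92 CPM in NT, Low and High of K3174 and 0.511, 0.512 and 0.578 CPM in those of K3117. All K3174 values lay above all K3117 values (1.32 ± 0.34, adjusted p = 0.028), on between 13 and 57 counts per library, and DESeq2 did not call it (adjusted p = 0.14). Leaving out any single Low or High library ended the call (adjusted p between 0.11 and 0.16). No mitochondrial member passed by edgeR or DESeq2, with none at an unadjusted p under 0.05, a median of 0.14 and all 13 above zero. That median depended on single libraries. It was 0.32 without the K3117 NT library and 0.33 without the K3174 NT library. With any single Low or High library left out it was between 0.030 and 0.060.

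In lists of genes that serve the respiratory chain, the calls for High against NT stand beside 17.3% of all genes called, 10.0% higher and 7.32% lower. Of 43 complex assembly factors tested for High against NT, 1 was lower, Uqcc2 of complex III, with 37.5, 28.5 and 23.8 CPM in NT, Low and High of K3174 and 34.7, 31.1 and 28.8 CPM in those of K3117 (-0.46 ± 0.15, adjusted p = 0.048). The median of these 43 was -0.16. Of 77 mitochondrial ribosomal protein genes, 1 was lower, Mrpl16 (-0.40 ± 0.13, adjusted p = 0.049), with a median of -0.17, and of 29 genes for mitochondrial DNA upkeep and RNA, 1 was lower. That gene was Polg2, the accessory subunit of the mitochondrial DNA polymerase, with 9.54, 6.80 and 5.82 CPM in NT, Low and High of K3174 and 12.5, 8.52 and 6.13 CPM in those of K3117 (-0.87 ± 0.19, adjusted p = 0.0088). The median of that list was -0.13. Tfam, which packs and activates mitochondrial DNA and was named after its value was seen, had -0.23 ± 0.12 (adjusted p = 0.25).

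Among 9 tested regulators of mitochondrial biogenesis, the coactivator Ppargc1b was lower (-0.76 ± 0.23, adjusted p = 0.044), and the median was -0.04. The other coactivator, Ppargc1a, had at most 0.150 CPM in any library. Nrf1 and Gabpa, factors known to act on respiratory chain promoters, had -0.02 (adjusted p = 0.93) and 0.02 (adjusted p = 0.94). None of 13 citric acid cycle genes (median -0.10), 13 coenzyme Q synthesis genes (median -0.06), 12 mitochondrial stress genes (median -0.04) or 4 further carriers and subunits (median -0.17) passed. The last of these lists held cytochrome c1, Cyc1 (-0.31 ± 0.14, adjusted p = 0.16), and cytochrome c, Cycs (-0.24 ± 0.12, adjusted p = 0.25). For Low against NT and for High against Low no gene of these 8 lists passed, beside 3.34% and 5.48% of all genes. In K3174 against K3117, where 9.37% of all genes passed, Coq8a was lower (adjusted p = 0.046) and the stress factor Atf5 higher (adjusted p = 0.0010). For comparison, 17 of 18 tested late neutrophil genes rose and 12 of 14 fusion targets fell in High against NT, with medians of 4.73 and -1.09.

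Promoters from 250 bases before to 50 bases after the start (RefSeq, GRCm38.p6) were at hand for 71 nuclear members, with 76 windows. They are described because NRF1 and ETS factors such as GABP are known to act at such promoters. The NRF1 motif GCGCATGC, on either strand, was in 13.2% of member windows and in 2.71% of all 32851 promoter windows. The ETS motif CCGGAAG was in 25.0% and 8.86%, the YY1 motif AAGATGGC in 11.8% and 2.75%, and the E-box CACGTG in 7.89% and 7.15%. No member window had an ETS motif running into a YY1 motif with 3 shared bases, on either strand, and other overlaps were not sought. A match is a string of letters, not a site shown to be bound. Sdhb and Atp5o, the 2 members lower in High against NT that had a window, are given here because they differ in this, with motif matches in capitals. Sdhb (chr4:140961021-140961320, plus strand) had an NRF1 and an ETS match, and Atp5o (chr16:91931581-91931880, minus strand) had none of the 4 motifs.
Sdhb: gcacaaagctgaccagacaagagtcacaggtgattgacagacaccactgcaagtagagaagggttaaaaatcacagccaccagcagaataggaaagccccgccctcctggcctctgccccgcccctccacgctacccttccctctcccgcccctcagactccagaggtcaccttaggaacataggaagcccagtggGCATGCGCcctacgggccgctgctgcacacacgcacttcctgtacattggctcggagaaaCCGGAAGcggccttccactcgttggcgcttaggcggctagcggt
Atp5o: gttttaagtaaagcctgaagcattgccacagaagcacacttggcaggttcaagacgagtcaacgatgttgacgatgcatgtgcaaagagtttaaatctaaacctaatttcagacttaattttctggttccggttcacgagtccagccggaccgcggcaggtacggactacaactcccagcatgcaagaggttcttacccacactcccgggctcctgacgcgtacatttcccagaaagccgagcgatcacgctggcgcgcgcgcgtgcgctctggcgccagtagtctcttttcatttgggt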

How the data were processed

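The authors deposited whole-number read counts per Ensembl gene ID, 1 column for each of the 6 libraries, from paired reads of 150 bases. Per the submitters' processing notes, STAR, STAR-Fusion, kallisto, DESeq2 and mm10 were used. Their roles and versions, the annotation release, the use of strand and the treatment of reads matching several places are not stated in those notes or the labels. Of the IDs, 99.5% were matched to GENCODE M21 (GRCm38), and 259 IDs had no match.

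Counts were analysed with edgeR 4.0.16 in R 4.3.3, with TMM factors (0.973 to 1.04), filterByExpr and the quasi-likelihood test on label plus leukemia, over all 6 libraries. Benjamini-Hochberg adjustment ran over 15812 genes, and the fit had 2 residual and 9.37 prior degrees of freedom, with a biological coefficient of variation of 12.0%. Each K number in the titles names 1 library of each label. Libraries with the same number deviated together (correlations 0.64 for High with Low, 0.44 for High with NT, 0.57 for Low with NT), so the leukemia was kept as a block. Standard errors were taken from the fold change and its F statistic. Differences within a leukemia are on log2 CPM with a prior count of 2. DESeq2 1.42.0, other scalings and filters, and the removal of each library were alternatives. Near-identical copies were sought with blastn 2.17.0.

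The members and lists were chosen with earlier results of these data known. The text names every mitochondrial member, every nuclear member past the threshold, the 2 highest nuclear members per complex by length-scaled level, tissue-restricted isoforms with their partners, and the highest and lowest nuclear fold change per comparison of labels. Genes outside this rule are named as examples or near misses and were chosen after their values were seen. The floor for a library without counts was set at 3 counts.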

Additional observations from a re-analysis of the deposited data

Results flagged for a closer look

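The mitochondrial ribosomal RNAs, which are transcribed with the messenger RNAs but are not members, moved in opposite directions in the leukemias. Their summed CPM differed between High and NT by 0.43 in K3174 and by -0.28 in K3117, on the log2 scale, and between Low and NT by 0.41 in K3174 and by -0.33 in K3117. The mitochondrial ribosomal protein genes, as a sum, differed between High and Low by -0.15 in K3174 and by 0.0076 in K3117. These rest on 1 library per label in each leukemia, and the differences between leukemias were not tested.

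Counts were also present on the chromosome 1 copies of mitochondrial genes, which are not members but were not excluded from the values over all genes. They summed to 2810, 5358 and 4808 counts in NT, Low and High of K3174, and to 4386, 3998 and 3160 counts in those of K3117, from libraries of unequal depth. Scaled, these were 122.9, 160.5 and 161.7 CPM in K3174 and 131.8, 128.0 and 140.4 CPM in K3117, so that High lay above NT in both.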

How the results depend on the processing

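With 2 libraries per label, single libraries set many of the counts. Among the values for single members under the alternatives, 1823 stayed on their side of the threshold, 46 gained the call and 23 lost it. Sign changed in 134, of which 119 came from leaving out 1 library, and 0 of the 134 passed the threshold by edgeR or DESeq2 in either of the fits compared.

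For High against NT, nuclear members called numbered 8 of 85 with upper quartile factors, beside 18.7% of all genes. They numbered 5 of 85 with library sizes alone, beside 17.3%, and 5 of 87 without a filter, beside 12.8%. Without the replicate block they numbered 0 (8 at an unadjusted p under 0.05), beside 3.12%. Mitochondrial members called by edgeR numbered 0 with upper quartile factors (1 at an unadjusted p under 0.05) and 0 with library sizes alone (3). Without a filter 3 of 13 were called, beside 12.8% of all genes. The number was 0 without the block (2), beside 3.12%, and 0 with only the 2 labels compared (4), beside 15.1%. DESeq2 called 2 of 13, beside 9.05% of 26299 genes not filtered for low counts. Leaving out 1 library gave 1 to 19 nuclear and 0 to 10 mitochondrial calls.

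The pairing of libraries by leukemia mattered for all genes: without the replicate block 493 passed for High against NT, 0 for Low against NT (950 at an unadjusted p under 0.05) and 0 for High against Low (1238), and nuclear members for High against Low numbered 0 (2). Over all genes, Low against NT gave 1071 calls without a filter and 881 with 2 labels, and High against Low gave 1425 without a filter, 568 at a CPM of at least 5 and 1864 with 2 labels. K3174 against K3117 gave 932 at a CPM of at least 5. At that filter nuclear members called numbered 0 for High against Low (0 at an unadjusted p under 0.05), beside 5.54% of all genes. For K3174 against K3117 they numbered 0 (2), beside 9.09%. DESeq2 also gave 0 (3), beside 4.98% of 26299 genes not filtered for low counts.

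The mitochondrial median for High against Low was 0.027 with upper quartile factors, 0.050 with library sizes, 0.069 without a filter, 0.082 with 2 labels and 0.11 without the 6 low genes, an alternative chosen after seeing the data. The mitochondrial sum, High over Low, was 0.070 in K3174 with upper quartile factors, and in K3117 -8.23e-05 with those factors and 0.0095 with library sizes.

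Leaving out 1 library gave 1927 to 4394 calls over all genes for High against NT, 144 to 1483 for Low against NT, 335 to 1982 for High against Low and 829 to 2642 for K3174 against K3117. The mitochondrial median ranged from -0.029 to 0.48 for Low against NT. For K3174 against K3117 it ranged from 0.030 to 0.33, and the nuclear median from -0.097 to 0.0035. The nuclear median ranged from -0.12 to -0.033 for Low against NT and from -0.13 to 0.038 for High against Low, and the mitochondrial median from -0.041 to 0.19 for High against Low.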
